A study of Arabidopsis thaliana with 20 samples.

Results

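The regions described here are the transposable elements on either side of the 5 Arabidopsis centromeres. They were chosen by identifier: the rows of the deposited expression table whose element number lies between 37000 and 58000 on chromosome 1, 5000 and 33000 on chromosome 2, 42000 and 70000 on chromosome 3, 7500 and 31000 on chromosome 4, or 32000 and 57000 on chromosome 5. Element numbers run along each chromosome, so the numbers give an order but no coordinate. The rule took 2965 of the 4050 transposable element rows in the table, which holds 30613 rows once spike-in controls are set aside. Chromosome 1 contributed 442 of them, chromosome 2 652, chromosome 3 725, chromosome 4 567 and chromosome 5 579. All 2965 passed the filter on low values, which removed 0 rows of the table. The table held no value at 0, so rows may have been selected before deposit, by a rule not known here. An element could then be present only through a genotype where its signal is high, which was not tested.

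The series profiled chromatin-associated RNA of whole 10-day-old Arabidopsis thaliana seedlings with MeRIP-seq. In this assay RNA fragments carrying N6-methyladenosine (m6A) are pulled down with an antibody, and an input library is made from the RNA before the pull-down. All plants were of the Col-0 strain and the 5 genotypes were untransformed Col-0 and 4 lines overexpressing human ALKBH5, an enzyme that removes m6A. The FL line carried full-length ALKBH5 and the inactive FL line the same protein with H204A, a substitution known to abolish its activity. The del-cIDR line carried ALKBH5 without its C-terminal intrinsically disordered region, and the inactive del-cIDR line the same truncated protein with H204A. Every genotype had 2 input libraries, and only these 10 input libraries are used here. The promoter of the transgene and the number of independent lines behind a genotype are not given in the labels used here, so a genotype cannot be told apart from a single transgenic line. What separates the 2 libraries of a genotype is not stated either. The p-values therefore rest on the spread between these libraries, which may be technical only.

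In Arabidopsis, the chromatin around the centromeres is packed with transposable elements and holds few genes. Plants keep such elements silent with DNA methylation, maintained by MET1, CMT2 and CMT3 with the remodeller DDM1, with histone H3 lysine 9 methylation by SUVH4 and its relatives, and with small RNAs that guide new methylation through RNA polymerases IV and V. Chromatin-associated RNA, as measured here, includes transcripts still held at the DNA. The comparison between active and H204A forms is meant to address demethylase activity, and that between FL and del-cIDR the disordered region. The level of the transgene was not compared between the lines, so neither can be told apart from a difference in that level.

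Values are the deposited signal of the input libraries, on a linear scale, and are not corrected for the length of an element, so levels are compared between genotypes and not between elements. The files and the reference table name no element, family or coordinate (0 element rows matched), and each element is therefore called by its identifier. Copies of an element family can be nearly identical and elements can lie inside or against genes. How reads matching several copies, or the strand of a read, were treated is not given in the sources used here, so the row of a single element may hold reads of another copy or of a neighbour. In whole seedlings, fewer cells of a type and less RNA per cell cannot be told apart.

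The 45 ERCC control rows summed to between 109310 and 110570 in the 10 libraries, whereas the total over all other rows ran from 32502000 to 36761000. The median row of the whole table was 52.6 ± 2.25 (SD, n = 2) in Col-0 and lay above it in every line, at 99.7 ± 0.667 in FL, 84.3 ± 7.29 in del-cIDR, 70.4 ± 0.256 in its inactive form and 66.3 ± 7.73 in inactive FL. Fold changes of elements are therefore given beside the median of all rows in the same comparison. In addition, 6 elements, all of chromosome 3 and numbered from 55000 and below 60000, differed by more than 10-fold between the 2 libraries of a genotype while reaching 100 or more in the higher one. Only 1 other row of the table did so. Wide gaps under that cut also occurred elsewhere, as in AT5TE40480 of chromosome 5, whose values are given with them. These 6 elements are described separately below, and sums over the elements are given with and without them.

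The signal of the pericentromeric elements was lowest in Col-0 and highest in FL. The median element read 13.1 and 12.5 in the 2 Col-0 libraries and 41.5 and 44.4 in the 2 FL libraries. Between these stood inactive FL with 17.0 and 22.3, del-cIDR with 23.2 and 30.3, and inactive del-cIDR with 20.5 and 24.2. No library of a transgenic line fell to the Col-0 medians, and no other library reached those of FL, while the ranges of del-cIDR and inactive del-cIDR overlapped. Within a genotype the 2 medians lay furthest apart in del-cIDR, inactive FL and the inactive truncated line, with group means of 26.8 ± 5.04, 19.6 ± 3.78 and 22.4 ± 2.61 (SD, n = 2) against 12.8 ± 0.405 in Col-0 and 43.0 ± 2.07 in FL.

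**Figure D1:**
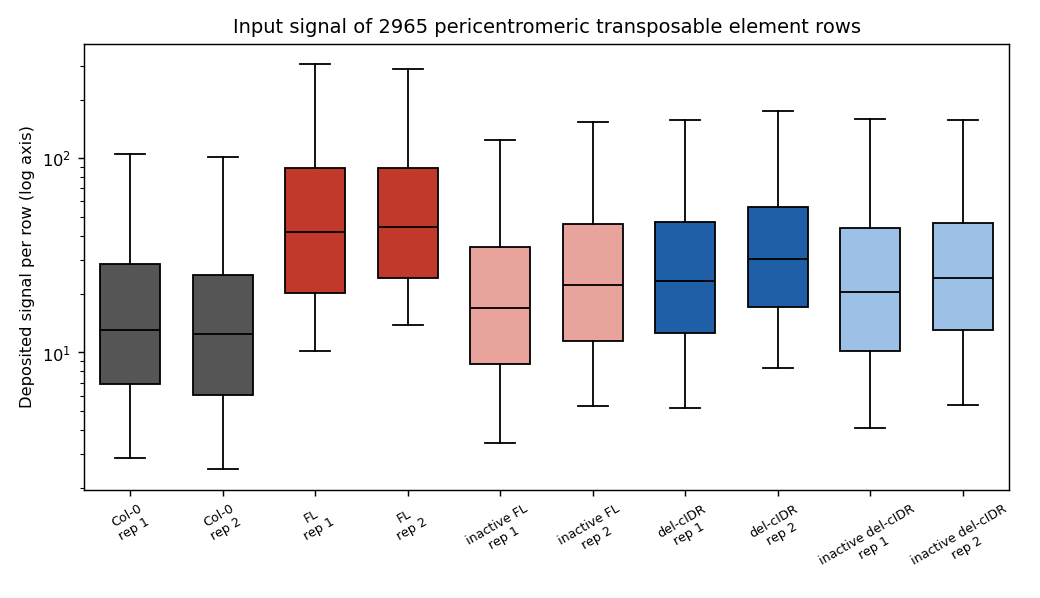
Deposited signal (log axis) of the 2965 pericentromeric element rows in each of the 10 input libraries; boxes span the quartiles, the line is the median and whiskers run from the 5th to the 95th percentile. Both FL medians (41.5 and 44.4) lie above all others, and both Col-0 medians (13.1 and 12.5) below.

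Summed over all 2965 elements, the signal was 3.14 times that of Col-0 in FL, 1.70 times in del-cIDR, 1.49 times in inactive FL and 1.45 times in inactive del-cIDR. Without the 6 unsteady elements the ratio for FL was 2.60, and those for inactive FL, del-cIDR and inactive del-cIDR were 1.32, 1.65 and 1.41. The elements held 0.307% ± 0.0317 of all signal in Col-0 and 0.959% ± 0.00911 in FL (SD, n = 2). Element by element, FL had the highest mean of the 5 genotypes in 2680 of the 2965 (90.4%, against 59.6% of all rows), and 2363 (79.7%, against 43.2%) had their highest mean in FL and their lowest in Col-0. A mean more than 2-fold above Col-0 was reached by 2663 elements in FL, 1527 in del-cIDR, 991 in inactive del-cIDR and 590 in inactive FL, or 89.8%, 51.5%, 33.4% and 19.9%, where all rows gave 42.4%, 29.8%, 17.4% and 10.7%. More than 4-fold was reached by 993 elements in FL (33.5%, against 12.2% of all rows), 189 in del-cIDR (6.37%, against 3.73%), 81 in inactive del-cIDR (2.73%, against 1.56%) and 39 in inactive FL (1.32%, against 0.918%).

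FL against Col-0 asks what changes when the full-length demethylase is expressed. In this comparison 2712 elements were higher and 2 lower (limma, two-sided, Benjamini-Hochberg adjusted p under 0.05 over all rows). That is 91.5% of the elements called higher, where 75.5% of all rows were called higher and 1.47% lower. Their median log2 fold change was 1.37, with quartiles of 1.05 and 1.62, against 0.67 over all rows, 0.69 over the 1085 other transposable element rows and 0.52 over 22841 protein-coding genes. Of the elements, 89.8% lay above the all-row median. The increase over Col-0 therefore stood 0.70 above that of the table on the log2 scale. With every library centred on its own all-row median, 1343 elements were higher and 144 lower. For counts after centring, with a library left out or under another alternative, no share of all rows called is given, here or below. Such counts are therefore not read against the whole table.

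Because so many elements rose, only those of the largest change are named. AT4TE18435 read 40.9 and 28.0 in Col-0, 181 and 191 in FL, 58.7 and 91.5 in inactive FL, 92.7 and 79.1 in del-cIDR, and 86.5 and 91.0 in inactive del-cIDR. Both FL libraries lay above all others, and the libraries of the other lines lay between them and Col-0. FL exceeded Col-0 by 2.24 ± 0.197 (SE) on the log2 scale (limma adjusted p = 3.32e-14). AT3TE65525 rose from 6.01 and 9.91 in Col-0 to 71.0 and 70.6 in FL, with 25.5 and 35.9 in inactive FL (log2 fold change 2.40 ± 0.273, adjusted p = 1.33e-10, limma). AT3TE50875 gave 22.3 and 17.4 in Col-0 against 116 and 124 in FL, and AT5TE41485 gave 12.1 and 13.6 against 78.2 and 94.8. In all 4 the FL libraries lay above every other library. AT3TE58960 had a similar fold change (2.37 ± 0.203, limma adjusted p = 1.25e-14), though its FL libraries read 372 and 198. The 2 elements called lower in FL than in Col-0 were AT4TE11580, with 12.7 and 8.13 against 28.1 and 18.1, and AT3TE58730, which is 1 of the 6 unsteady elements; neither passed the rule for named elements. For AT4TE11580 the call (adjusted p = 0.0219, limma) was lost without Col-0 replicate 1 or FL replicate 2, with an adjusted p of up to 0.211.

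**Figure D2:**
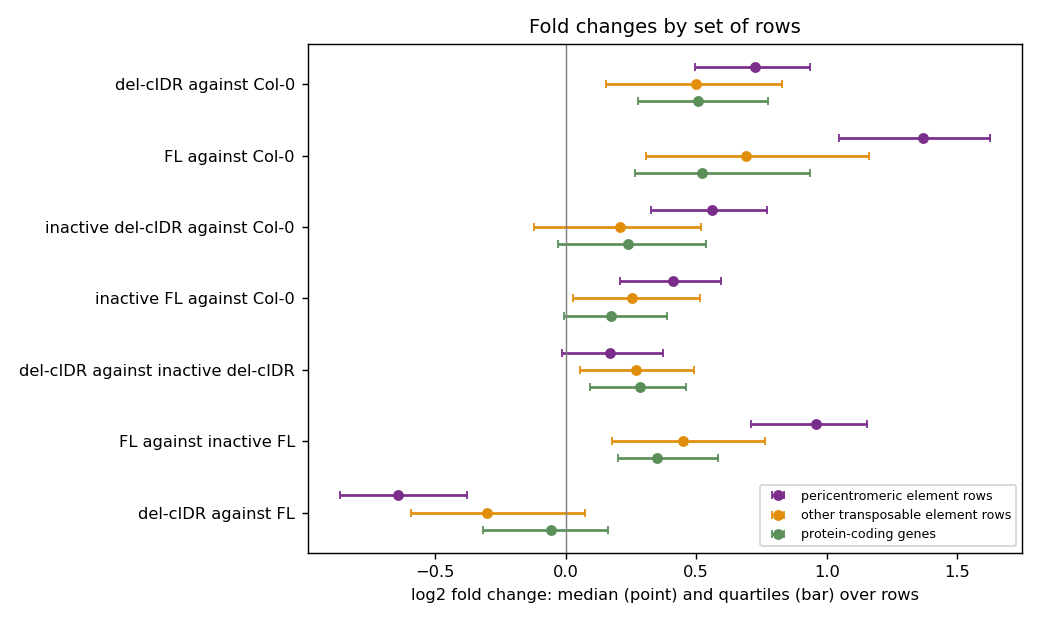
Median log2 fold change (points) and quartiles (bars) of pericentromeric element rows, other transposable element rows and protein-coding genes in the 7 comparisons between 2 genotypes. The pericentromeric elements lie to the right of both other sets in FL against Col-0 (1.37) and FL against inactive FL (0.96), and to the left in del-cIDR against FL (-0.64).

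FL against inactive FL separates the active enzyme from its H204A form. Here 2294 elements were higher and 2 lower, or 77.4% of the elements called higher where 58.1% of all rows were called higher and 0.751% lower. The median log2 fold change was 0.96, against 0.43 over all rows, 0.45 over the other element rows and 0.35 over protein-coding genes. Without inactive FL replicate 1, whose element median was the lower of its pair, 1345 elements were called and the median was 0.79. Centred on the all-row median, 859 were higher and 74 lower.

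Some elements of this comparison were close to the Col-0 level in inactive FL. AT2TE11355 read 96.3 and 110 in FL, 26.5 and 29.8 in inactive FL and 21.3 and 23.9 in Col-0 (log2 fold change of FL against inactive FL 1.65 ± 0.242, limma adjusted p = 2.79e-07). AT5TE41345 read 104 and 107 in FL and 33.1 and 24.6 in inactive FL, where Col-0 gave 27.4 and 30.5. For both elements the FL libraries stood above all 8 others, and for AT5TE41345 the inactive FL and Col-0 libraries overlapped. AT5TE39080 was also higher in FL, at 63.9 and 88.4 against 14.4 and 24.9. In the opposite direction, AT5TE46165 read 183 and 178 in FL and 243 and 208 in inactive FL, a log2 difference of -0.31 ± 0.12 (limma adjusted p = 0.026) that was lost without FL replicate 1, FL replicate 2 or inactive FL replicate 1, with an adjusted p of up to 0.256. The other element called lower, AT3TE58775, is an unsteady one, with 1255 in 1 inactive FL library and 38.9 in the other.

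The H204A forms also differed from Col-0, by less. In inactive del-cIDR, 1185 elements were higher and 31 lower than in Col-0 (40% called higher, against 32.4% of all rows higher and 7.84% lower), with a median log2 fold change of 0.56 against 0.31 over all rows and 0.21 over the other element rows. In inactive FL, 545 were higher and 20 lower (18.4% called higher, against 16.9% and 3.12% of all rows), with a median of 0.41 against 0.22 over all rows and 0.26 over the other element rows. Centred on the all-row median, the splits were 375 higher and 102 lower in inactive del-cIDR and 151 higher and 65 lower in inactive FL. The count for inactive FL was 170 without inactive FL replicate 2, where the median was 0.27, and 243 without Col-0 replicate 2, and that for inactive del-cIDR was 614 without inactive del-cIDR replicate 2 and 690 without Col-0 replicate 2.

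Among elements higher in the inactive lines than in Col-0, AT5TE49540 was named in both comparisons. It read 31.9 and 35.0 in Col-0, 164 and 168 in FL, 94.0 and 122 in its inactive form, 233 and 236 in del-cIDR, and 149 and 128 in inactive del-cIDR. All 8 libraries of the lines thus lay above Col-0, with log2 fold changes of 1.50 ± 0.159 in inactive FL (limma adjusted p = 4.53e-11) and 1.85 ± 0.159 in inactive del-cIDR (limma adjusted p = 1.31e-14). AT3TE45385 had 72.8 and 72.9 in Col-0 and 249 and 257 in inactive FL. Its 316 and 332 in FL lay above inactive FL (log2 fold change 0.35 ± 0.119, limma adjusted p = 0.012). Del-cIDR gave 319 and 321, and inactive del-cIDR 175 and 150. AT2TE08385 was highest in inactive del-cIDR, with 159 and 170 there against 28.4 and 28.6 in Col-0, 84.1 and 86.5 in FL, and 90.7 and 60.6 in del-cIDR. For AT2TE08385 the active truncated form thus gave less signal than its H204A form (log2 difference -1.08 ± 0.208, limma adjusted p = 3.38e-05).

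The lowest mean of the 5 genotypes was in inactive del-cIDR for 178 elements (6%, against 19.2% of all rows). AT2TE28180 read 681 and 578 in Col-0, 790 and 817 in FL, 639 and 543 in inactive FL, 522 and 494 in del-cIDR, but 159 and 144 in inactive del-cIDR (log2 fold change against Col-0 -2.00 ± 0.0874, limma adjusted p = 1.06e-26). The neighbours AT1TE37060 and AT1TE37065, the first of the chromosome 1 range, behaved alike in that both fell in del-cIDR and fell further in inactive del-cIDR. AT1TE37065 read 384 and 372 in Col-0, 501 and 448 in FL, 232 and 237 in del-cIDR, and 104 and 105 in inactive del-cIDR, with log2 fold changes against Col-0 of -0.67 ± 0.102 in del-cIDR (limma adjusted p = 2.35e-07) and -1.79 ± 0.102 in inactive del-cIDR (limma adjusted p = 1.71e-21).

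Del-cIDR against Col-0 asks what the truncated active enzyme changes. In it 1901 elements were higher and 15 lower, or 64.1% called higher where 65.5% of all rows were called higher and 1.85% lower. The share of elements called higher was thus near that of the whole table. The median log2 fold change of 0.73 compared with 0.56 over all rows, 0.50 over the other element rows and 0.51 over protein-coding genes. The count was 1055 without del-cIDR replicate 2 and 1230 without Col-0 replicate 2, and centring on the all-row median left 201 higher and 114 lower.

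Against its own H204A form, del-cIDR differed in few elements. Of the 2965, 169 were higher and 15 lower, or 5.7% called higher where 28.7% of all rows were called higher and 2.76% lower. The median log2 fold change was 0.17, against 0.27 over all rows, 0.27 over the other element rows and 0.29 over protein-coding genes, so the elements' median lay below that of the table. Its direction depended on the scaling, since centring each library on its all-row median gave a median of -0.07. The centred counts, not read against the whole table, were 61 elements higher and 116 lower. The median was 0.04 without del-cIDR replicate 2, 0.09 without inactive del-cIDR replicate 1 and 0.30 without del-cIDR replicate 1. The count of 184 was 92 without inactive del-cIDR replicate 1 and 97 without del-cIDR replicate 2.

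The effect of activity was tested for a difference between the forms, as (del-cIDR minus inactive del-cIDR) minus (FL minus inactive FL). The difference was called negative in 879 elements and positive in 33, or 29.6% negative and 1.11% positive, where 13.9% of all rows were called negative and 6.15% positive. Its median was -0.80 on the log2 scale, against -0.19 over all rows, -0.21 over the other element rows and -0.09 over protein-coding genes. The count of 912 fell to between 570 and 599 without FL replicate 2, inactive FL replicate 1, del-cIDR replicate 1 or inactive del-cIDR replicate 2.

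Del-cIDR against FL compares the active forms directly. In it 1246 elements were lower in del-cIDR and 40 higher, or 42% called lower where 20% of all rows were called lower and 10.6% higher. The median log2 fold change was -0.64, against -0.14 over all rows, -0.30 over the other element rows and -0.06 over protein-coding genes. Without del-cIDR replicate 1, FL replicate 2 or FL replicate 1, the count of 1286 became 656, 712 or 812.

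Several elements in the lower direction were in del-cIDR at or below their Col-0 level. AT2TE13410 read 285 and 219 in Col-0, 692 and 600 in FL, 406 and 525 in inactive FL, 200 and 232 in del-cIDR, and 373 and 390 in inactive del-cIDR. The del-cIDR and Col-0 libraries overlapped while the other lines lay above both, and del-cIDR was lower than FL by a log2 fold change of -1.55 ± 0.106 (limma adjusted p = 7.25e-18). AT2TE23575 had 84.3 and 85.2 in del-cIDR, below its 128 and 115 in Col-0 and its 275 and 287 in FL. AT3TE52120 had 21.5 and 26.2 in del-cIDR, 48.6 and 32.4 in Col-0 and 97.5 and 98.3 in FL. For AT3TE52120 the fall below Col-0 (adjusted p = 0.0287, limma) was lost without Col-0 replicate 1 or del-cIDR replicate 1, with an adjusted p of up to 0.296, whereas its fall below FL kept an adjusted p of at most 2.41e-05 when any 1 library was left out.

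The 40 elements higher in del-cIDR than in FL included some with a large del-cIDR signal. AT5TE37665 read 6.12 and 3.57 in Col-0, 26.9 and 15.1 in FL, 6.31 and 14.1 in inactive FL, 351 and 325 in del-cIDR, and 66.5 and 70.0 in inactive del-cIDR. Both truncated forms thus lay above both full-length forms, and the active truncated form above its H204A form. Its log2 fold changes were 4.88 ± 0.273 for del-cIDR against Col-0 (limma adjusted p = 6.38e-22), 3.66 ± 0.273 against FL (limma adjusted p = 1.89e-16) and 2.20 ± 0.273 against inactive del-cIDR (limma adjusted p = 2.66e-09). The next element row, AT5TE37660, had the same order, from 8.12 and 8.07 in Col-0 through 4.44 and 13.2 in inactive FL, 25.5 and 29.9 in FL, and 32.2 and 33.2 in inactive del-cIDR to 149 and 140 in del-cIDR. Adjacent rows need not be separate transcripts, since reads of one may extend into the other.

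On chromosome 4, 6 consecutive element rows from AT4TE10285 to AT4TE10345 were all higher in del-cIDR than in FL, by log2 fold changes between 1.21 and 2.13, and formed the only run of 3 or more such rows. AT4TE10320 read 618 and 619 in Col-0, 1228 and 1203 in FL, 1103 and 1116 in inactive FL, 3248 and 3221 in del-cIDR, and 1371 and 1303 in inactive del-cIDR. The other 3 lines lay between 1103 and 1371, all above Col-0, and del-cIDR stood above all of them, by 1.41 ± 0.0567 on the log2 scale over FL (limma adjusted p = 1.49e-27). AT4TE10345, the last of the run, read 41.0 and 28.2 in Col-0, 98.9 and 101 in FL, 73.2 and 66.8 in inactive FL, 289 and 280 in del-cIDR, and 85.8 and 88.8 in inactive del-cIDR. Against inactive del-cIDR there were 7 runs of 3 or more rows with higher signal in del-cIDR. Besides a 7-row run from AT4TE10285 to AT4TE10350, these included 7 rows from AT2TE18800 to AT2TE18875, 6 from AT4TE21085 to AT4TE21115 and 5 from AT5TE46150 to AT5TE46175. They held 34 of the 169 elements called higher in that comparison.

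**Figure D3:**
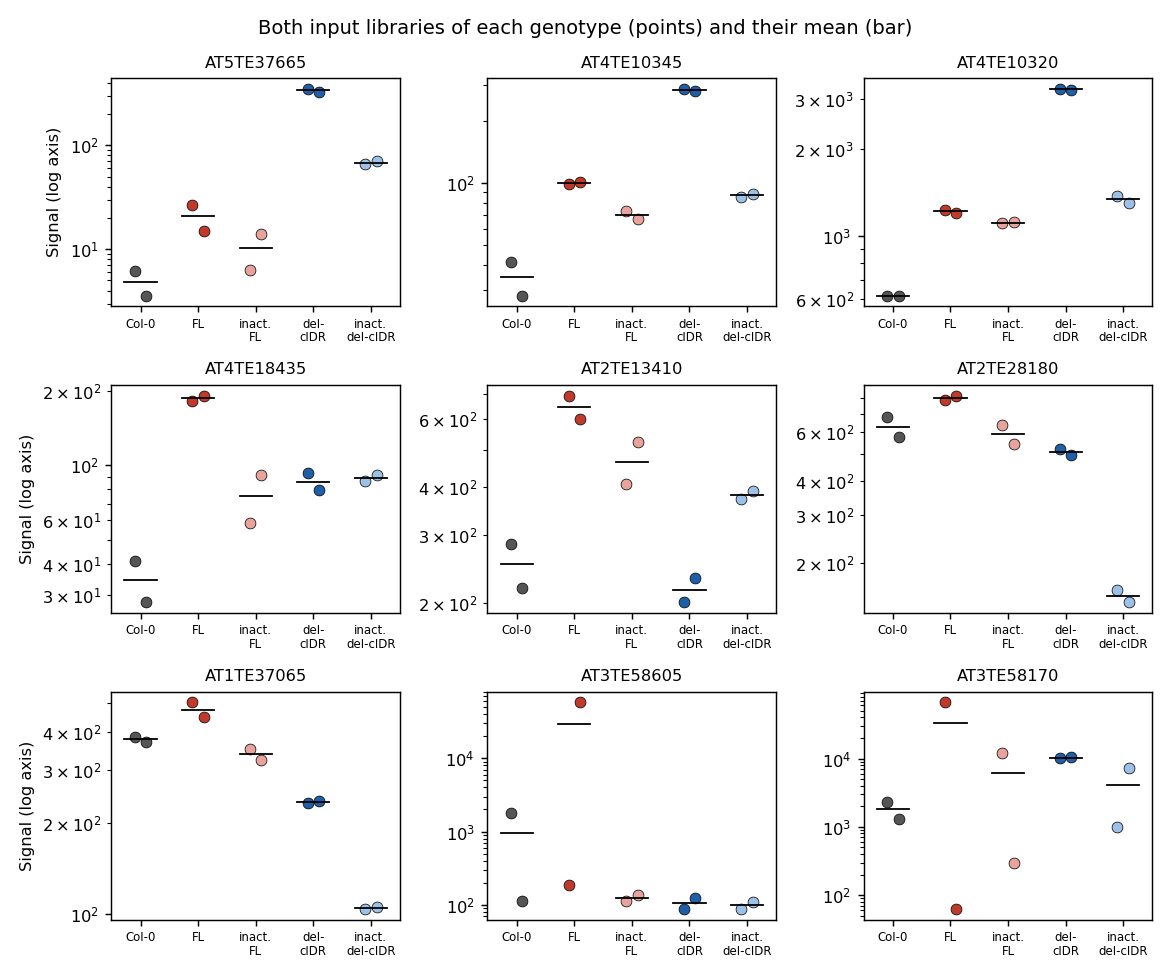
Deposited signal (log axis) of 9 named elements in both input libraries of each genotype (points) with their mean (bar). AT5TE37665, AT4TE10345 and AT4TE10320 are highest in del-cIDR, AT4TE18435 and AT2TE13410 in FL, AT2TE28180 and AT1TE37065 are lowest in inactive del-cIDR, and the 2 libraries of a genotype lie far apart in AT3TE58605 and AT3TE58170.

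The changes were spread over all 5 chromosomes. Median log2 fold changes in FL against Col-0 were 1.33, 1.38, 1.35, 1.38 and 1.40 on chromosomes 1 to 5, with between 89% and 94.3% of the elements called higher. In del-cIDR against Col-0 they were 0.72, 0.74, 0.71, 0.72 and 0.74. Along each range, cut into 5 equal parts by element number and pooled over chromosomes, the FL medians were 1.18, 1.40, 1.42, 1.37 and 1.14, so both outer parts lay below the 3 inner ones. The 200 elements just inside the ends of the ranges had a median of 1.11 in FL against Col-0 and the 200 element rows just outside had 0.79. In bins of 25 consecutive element rows, the 113 bins made up only of pericentromeric elements had medians in FL against Col-0 of 0.33 to 1.66, the median bin at 1.40. The 37 bins with none ran from 0.27 to 1.1004, the median bin at 0.66, and 103 of the 113 lay above the highest of them.

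Among the bins of chromosome 3 made up only of pericentromeric elements, 2 adjacent ones had the lowest medians in each of the 4 lines. The bin from AT3TE57780 to AT3TE58160 had median log2 fold changes against Col-0 of 0.33 in FL, 0.03 in its inactive form, 0.18 in del-cIDR and 0.03 in the inactive form of that. The next, from AT3TE58170 to AT3TE58700, had 0.42, 0.04, 0.20 and 0.18 in the same order. Of the 6 unsteady elements, 3 fall in these bins, namely AT3TE58160, AT3TE58170 and AT3TE58605.

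**Figure D4:**
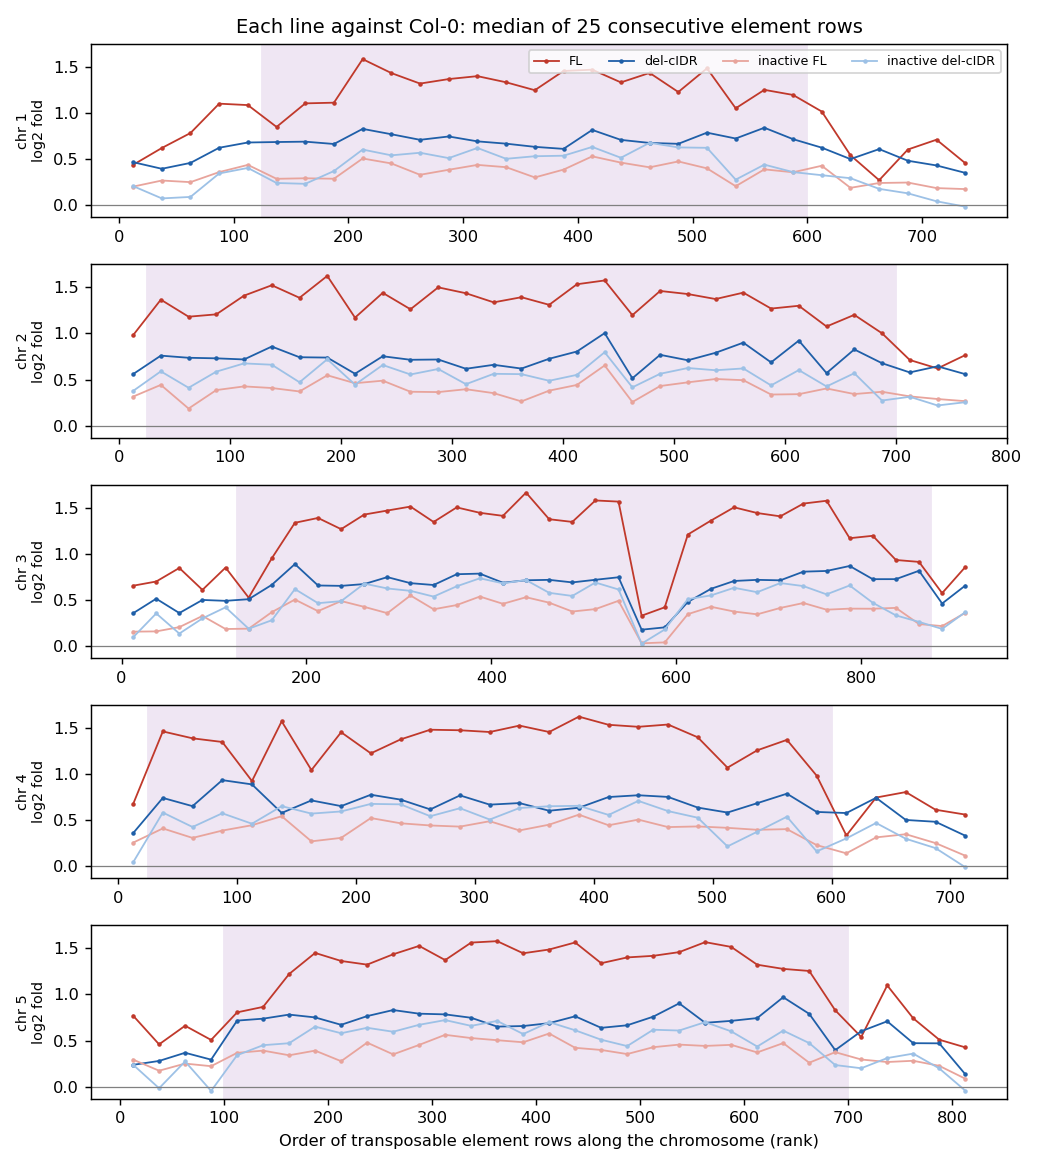
Median log2 fold change against Col-0 in bins of 25 consecutive transposable element rows, in order along chromosomes 1 to 5 (x axis: rank of the row), for the 4 lines; shading marks bins holding pericentromeric elements. FL lies highest through nearly all of the shaded ranges, with a median bin of 1.40, and drops to 0.33 and 0.42 in 2 adjacent bins of chromosome 3.

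Fold changes of low rows differ from those of high rows on this scale, so elements were also set beside genes of the same level. All rows were split into 10 classes of equal size by their mean log2 value over the 10 libraries, and 1708 of the 2965 elements fell in the 3 lowest classes. In FL against Col-0 the median log2 fold change of the elements was 1.06 in the lowest class, where protein-coding genes gave 0.98, and rose to 1.67 in class 6 and 1.66 in class 7, where genes gave 0.55 and 0.45. In class 9 it was 1.37 against 0.32, over 35 elements. The highest class, with only 13 elements, gave 0.38 against 0.23. In del-cIDR against Col-0 the elements gave 0.61, 0.76 and 0.73 in classes 1, 6 and 7, and genes 0.66, 0.53 and 0.47. With each library centred on protein-coding genes of the same class, the median over all elements was 0.44 in FL and 0.07 in del-cIDR.

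**Figure D5:**
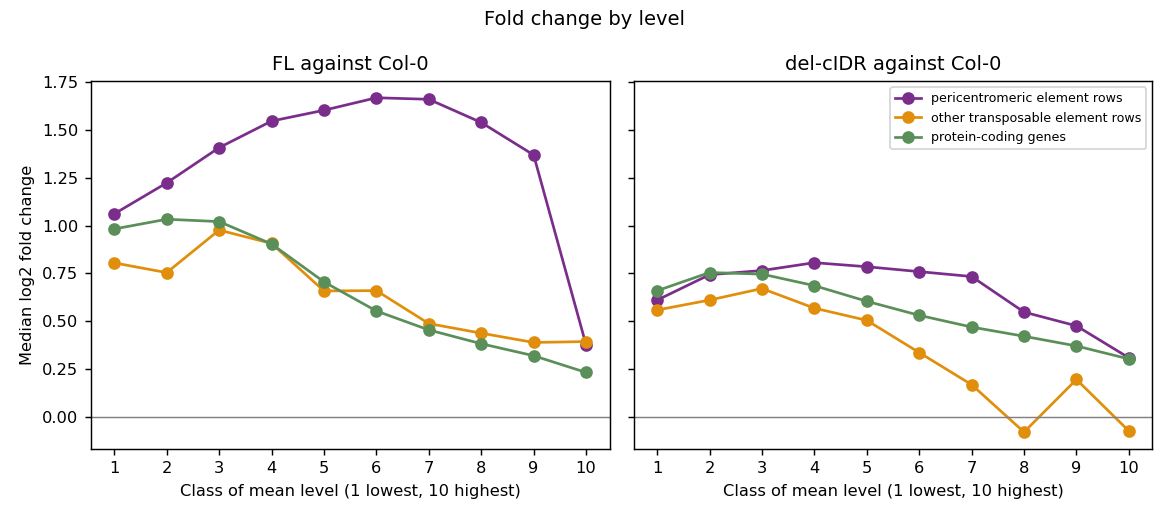
Median log2 fold change against Col-0 by class of mean level (1 lowest, 10 highest) for pericentromeric element rows, other transposable element rows and protein-coding genes, in FL (left) and del-cIDR (right). In FL the elements of class 6 reach 1.67 where genes of that class have 0.55; class 10 holds 13 pericentromeric elements.

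The 6 unsteady elements were AT3TE56710, AT3TE58160, AT3TE58170, AT3TE58605, AT3TE58730 and AT3TE58775, out of 224 elements in that stretch of chromosome 3. AT3TE58605 read 1812 and 114 in Col-0, 187 and 57922 in FL, and between 87.0 and 135 in the other 6 libraries. A single FL library thus carried nearly all of its signal, and its higher signal in FL than in inactive FL (limma adjusted p = 3.72e-05) was lost without FL replicate 2, at an adjusted p of 0.321. AT3TE58170 read 2311 and 1302 in Col-0, 66408 and 62.3 in FL, 11994 and 293 in inactive FL, 10089 and 10441 in del-cIDR, and 1007 and 7164 in inactive del-cIDR. AT3TE58160 read 28560 in 1 inactive FL library and 5.37 in the other. AT5TE40480, not among the 6, read 3758 and 535 in Col-0, 447 and 3942 in FL, and 430 and 378 in inactive FL. It read 836 and 4732 in del-cIDR and 2969 and 827 in inactive del-cIDR. Its log2 fold change of 1.71 ± 0.513 (SE) in FL against inactive FL ran from 0.15 to 3.27 when 1 library was left out. The 6 elements held up to 20.8% of the summed element signal of a library. They make up 0.202% of the elements and were picked out after their values were seen. Without them the counts called in each comparison moved by at most 4, and the median log2 fold changes were the same to 2 decimals.

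Of the 6 elements with the largest mean signal, 3 were unsteady ones. The others were AT4TE13930, AT4TE13950 and AT2TE20870. AT4TE13930 read 3525 and 3527 in Col-0, 4745 and 4814 in FL, 4199 and 4304 in inactive FL, 3978 and 3962 in del-cIDR, and 2997 and 3119 in inactive del-cIDR. AT2TE20870 was likewise lowest in inactive del-cIDR, at 1555 and 1606, and highest in FL, at 2831 and 2782. For both, the inactive del-cIDR libraries lay below those of Col-0. AT4TE13950 was instead highest in del-cIDR, at 3090 and 3007, with 2854 and 2538 in FL and 2003 and 1963 in Col-0.

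Genes tied to the silencing of transposable elements were counted from a list of 35, all present in the table. The list also holds the DNA demethylase gene ROS1 and the histone H3 lysine 9 demethylase gene IBM1, which act against silencing marks. IBM1 was among the genes called higher in del-cIDR and FL, and lower in inactive del-cIDR, than in Col-0. All 35 are called silencing genes below. Against Col-0, 30 were higher and 1 lower in del-cIDR, 28 and 2 in FL, 16 and 4 in inactive del-cIDR, and 10 and 1 in inactive FL, at limma adjusted p under 0.05 over all rows. In the same order, 65.5%, 75.5%, 32.4% and 16.9% of all rows were called higher, so 28 of 35 in FL is near the share of the whole table. Their median log2 fold changes of 0.50, 0.43, 0.41 and 0.17 compare with 0.56, 0.67, 0.31 and 0.22 over all rows. These directions depend on the scaling, since centring on the all-row median gave 3 higher and 9 lower in del-cIDR, 1 and 24 in FL, 6 and 12 in inactive del-cIDR, and 1 and 7 in inactive FL. Between forms, 17 genes were higher and 0 lower in del-cIDR than in inactive del-cIDR (2 and 2 when centred), 21 higher and 2 lower in FL than in inactive FL (0 and 19), and 7 higher and 1 lower in del-cIDR than in FL (22 and 0). In the same order, 28.7%, 58.1% and 10.6% of all rows were called higher, and 2.76%, 0.751% and 20% lower. The 21 of 35 in FL against inactive FL is thus near the share of the whole table. The count for FL against inactive FL was 5 without inactive FL replicate 1, 9 without FL replicate 1 and 15 without FL replicate 2. That for inactive FL against Col-0 was 1 without inactive FL replicate 2, 3 without Col-0 replicate 2 and 7 without Col-0 replicate 1. That for del-cIDR against FL was 3, 5 and 4 without FL replicate 2, FL replicate 1 and del-cIDR replicate 1.

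DDM1, the remodeller that lets methyltransferases reach heterochromatin, gave 48.3 and 58.5 in Col-0, 123 and 138 in FL, 75.1 and 91.4 in inactive FL, and between 117 and 171 in the truncated lines. Its log2 fold change was 1.19 in FL (limma adjusted p = 5.47e-08) and 1.46 in inactive del-cIDR (limma adjusted p = 3.79e-10). A link between DDM1 and the element signal was not tested. MET1, the methyltransferase that maintains CG methylation, rose in del-cIDR by 0.81 (limma adjusted p = 9.47e-12) and in FL by 0.39 (limma adjusted p = 7.66e-05). The linker histone gene H1.1 gave 1477 to 1547 in Col-0, 1039 to 1194 in FL, 1237 to 1268 in inactive FL, 1102 to 1158 in del-cIDR, and 860 to 909 in inactive del-cIDR, and was lower than Col-0 in all 4 lines, by log2 fold changes of -0.44 in FL and -0.77 in inactive del-cIDR (limma adjusted p = 3.96e-08 and 1.68e-15). Against all-row medians of 0.67 in FL and 0.56 in del-cIDR, DDM1 in FL and MET1 in del-cIDR lay above, and MET1 in FL below. H1.2, also a linker histone gene, fell by 0.53 on the log2 scale in inactive del-cIDR (limma adjusted p = 3.55e-12) and by 0.24 in FL (limma adjusted p = 0.000101), and did not pass in del-cIDR (-0.083, adjusted p = 0.16, limma) or inactive FL (-0.11, adjusted p = 0.125, limma). DCL2, which makes small RNAs from double-stranded RNA, was 0.61 higher in FL than in Col-0 (limma adjusted p = 3.19e-11) and 0.51 higher in del-cIDR than in inactive del-cIDR (limma adjusted p = 1.1e-08). AGO1, which loads small RNAs, rose in del-cIDR by 0.42 over Col-0 (limma adjusted p = 2.89e-11). Both DCL2 in FL and AGO1 in del-cIDR lay below the all-row median of their comparison with Col-0. SUVH4 was 0.69 higher in FL than in inactive FL (limma adjusted p = 4.8e-05), NRPE1, the largest subunit of RNA polymerase V, 0.74 higher in del-cIDR than in Col-0 (limma adjusted p = 1.45e-10), and the remodeller gene DRD1 0.47 higher in del-cIDR than in FL (limma adjusted p = 0.00219). The difference of the activity effects was -1.01 for ATXR5, a histone H3 lysine 27 methyltransferase gene (limma adjusted p = 0.00323).

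Markers of tissues in the seedling were summed by list and set beside the all-row median, which was 1.90 times that of Col-0 in FL, 1.60 times in del-cIDR, 1.34 times in inactive del-cIDR and 1.26 times in inactive FL. The summed signal of 4 genes of dividing cells ran from 198 to 211 in Col-0, 365 to 391 in FL, 286 to 303 in inactive FL, 436 to 470 in del-cIDR and 451 to 474 in inactive del-cIDR, and all 4 were called higher than Col-0 in every line but inactive FL, where 2 were. Of all rows, 75.5% were called higher in FL, 65.5% in del-cIDR, 32.4% in inactive del-cIDR and 16.9% in inactive FL. The mean of this sum was 1.85 times that of Col-0 in FL, 2.22 times in del-cIDR, 2.26 times in inactive del-cIDR and 1.44 times in inactive FL. The sum of 5 root genes ran from 633 to 656 in Col-0, 987 to 1000 in FL, 599 to 656 in inactive FL, 742 to 769 in del-cIDR and 644 to 683 in inactive del-cIDR, with 4 of 5 called higher in FL than in Col-0, where 75.5% of all rows were. That of 4 leaf photosynthesis genes ran from 98897 to 99552 in Col-0, 104660 to 105680 in FL, 107390 to 109090 in inactive FL, 168410 to 172960 in del-cIDR and 168610 to 169540 in inactive del-cIDR. The root sum was highest in FL, at 1.54 times Col-0, which is below the ratio of the all-row median there. The photosynthesis sum was 1.06 times Col-0 in FL and 1.72 times in del-cIDR. Most of this sum is LHCB1.3, which read 75212 to 75458 in Col-0. In FL, RCA and PSAF were called higher, RBCS1A was called lower and LHCB1.3 did not pass. All 4 were called higher in both truncated lines, and 2 in inactive FL, beside the shares of all rows given above. The pollen gene found in the table, 1 of 2 listed, gave 7.91 to 23.3 over the 10 libraries, and the sum of 2 seed storage genes ran from 353 to 751, highest in del-cIDR. Their part in the result was not tested.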

How the data were processed

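The authors deposited an expression table of the input libraries, with a signal for every gene, transposable element and spike-in control. Tools listed, without versions, per the submitters' processing notes are featureCounts for counting, HISAT2 as aligner, bedtools, SAMtools, Picard, fastp and MACS2; the build is TAIR10. Because ERCC sums are nearly equal between columns, the deposited signal looks scaled to these controls, and so depends on them. Low values were not whole multiples of one read's worth in enough rows (18.7% to 77.1% per library within 0.1 of a multiple), so depth is unknown, and counting intervals are left out. The deposited m6A table was not used here, since no element coordinates were at hand to place its peaks.

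Spike-in rows (92) were left out. Values were analysed as log2(value + 6.9386), the pseudocount being the 5th percentile, so fold changes of low rows are understated; rows had to reach it in 2 libraries. Of the elements, 1148 fell below the pseudocount in at least 1 library. By library, these were 798 and 865 elements in Col-0 but 17 and 4 in FL. In the other lines they were 537 and 241 (inactive FL), 253 and 87 (del-cIDR), and 401 and 209 (inactive del-cIDR). limma 3.58.1 (R 4.3.3, trended prior variance) fitted 5 group means to 10 libraries, with 8 two-sided contrasts adjusted over 30613 rows, and was checked on simulated data. Errors are SD over 2 libraries or limma's SE.

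Named elements were, per comparison and direction, the 6 of largest fold change among elements called, without overlap between the groups' libraries and at or above the median element mean, or, where fewer than 3 passed, the 3 of smallest p; the text gives most of these. The 6 of largest mean were added, and per comparison the 3 silencing genes of smallest p. The elements, gene lists and tests were chosen with earlier results of these data known. Alternatives covered pseudocount, filter, prior variance, groups fitted, replicate block, scaling, identifier ranges and leaving out each library. Figures were drawn with pandas 2.3.3, numpy 2.4.6 and matplotlib 3.10.9 under Python 3.11.15.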

Additional observations from a re-analysis of the deposited data

Results flagged for a closer look

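The effect of activity, meaning active against H204A form, differed between the truncated and the full-length enzyme, by limma's interaction contrast (adjusted p under 0.05), in 912 pericentromeric elements: 33 higher and 879 lower in the truncated form, where 6.15% of all rows were called higher and 13.9% lower.

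Of the elements named for an activity comparison, those whose positive difference on the log2 scale passed an adjusted p of 0.05 (limma) were AT4TE10290 (1.72), AT5TE37665 (1.49), AT4TE10285 (1.40), AT2TE28180 (1.26), AT4TE10345 (1.15) and AT5TE46165 (1.14). For AT2TE28180, inactive del-cIDR was the low genotype (159 and 144, against 494 to 817 in the other 8 libraries).

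A negative difference that passed it was found for AT3TE58605 (-4.61), AT2TE19970 (-2.21), AT5TE41345 (-1.57), AT2TE08385 (-1.50), AT2TE23575 (-1.50), AT2TE11355 (-1.38), AT2TE13410 (-1.28), AT5TE39080 (-1.18), AT5TE49725 (-1.09) and AT3TE43610 (-0.95). The value of AT3TE58605 rests on 1 FL library, which read 57922 where the other read 187. AT2TE19970 read 89.6 and 85.3 in FL, 22.8 and 36.4 in inactive FL, 20.4 and 35.8 in del-cIDR, and 65.2 and 43.0 in inactive del-cIDR.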

How the results depend on the processing

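In 8 comparisons the direction of the elements' median log2 fold change held under every alternative, except for del-cIDR against inactive del-cIDR, which turned under each of the 3 centrings. Leaving out 1 library gave counts of elements called of 1055 to 1970 (del-cIDR against Col-0), 2377 to 2728 (FL), 614 to 1315 (inactive del-cIDR), 170 to 756 (inactive FL), 92 to 221 (del-cIDR against inactive del-cIDR), 1345 to 2353 (FL against inactive FL), 656 to 1370 (del-cIDR against FL) and 570 to 1088 (difference of the activity effects). In the same order the medians ran from 0.59 to 0.87, 1.32 to 1.41, 0.49 to 0.64, 0.27 to 0.57, 0.04 to 0.30, 0.79 to 1.11, -0.78 to -0.51 and -0.94 to -0.62, and silencing genes called from 23 to 31, 22 to 30, 16 to 22, 1 to 13, 12 to 17, 5 to 24, 3 to 9 and 3 to 6. Where that leaves 1 library in a group, it is assumed to vary like the others. A pseudocount of 1 gave medians of 0.96, 1.76, 0.77 and 0.55 for del-cIDR, FL, inactive del-cIDR and inactive FL against Col-0, 1.17 for FL against inactive FL and -0.98 for the difference. The 20th percentile gave 0.55, 1.08 and 0.44 for the first 3, and 0.78 for FL against inactive FL. A stricter filter kept 456 elements, of which 398, 417, 390, 285, 80, 410, 395 and 380 were called. The share of all rows called under that filter is not given, so these counts are not a result about the elements. Medians were 1.61 (FL), 0.65 (inactive del-cIDR), 1.12 (FL against inactive FL), -0.90 (del-cIDR against FL) and -1.09 (difference). Fewer elements were tested. Without a trended variance, 261 elements were called in inactive FL against Col-0 and 559 for the difference, and 1, 8, 1 and 2 silencing genes in inactive FL against Col-0, FL against inactive FL, del-cIDR against FL and the difference. With only the groups compared, 3 silencing genes were called in inactive FL. Centred on all rows, counts of elements were 315, 1487, 477, 216, 177 (reversed) and 933 in the first 6 comparisons, medians 0.11, 0.53, 0.18, 0.12, -0.066, 0.41, -0.42 and -0.49, and silencing genes 12, 25, 18, 8, 4, 19, 22 and 14. Centred on protein-coding genes, counts were 371, 618, 326, 174 (reversed) and 1167 for del-cIDR, inactive del-cIDR and inactive FL against Col-0 and the 2 activity comparisons, the first 6 medians 0.20, 0.81, 0.28, 0.22, -0.073 and 0.59, and silencing genes 14, 11, 21, 5, 6 and 7, with 11 for the difference. Centring by level class, chosen after seeing the data, gave counts of 222, 1108, 434, 129, 135 (reversed) and 566, with 571 for the difference, medians of 0.073, 0.44, 0.20, 0.11, -0.12, 0.37, -0.41 and -0.51, and silencing genes 9, 6, 11, 0, 1, 1, 4 and 2. The middle 60% of each range held 112 elements called in del-cIDR against inactive del-cIDR. The level ratio to Col-0 by the median element was 3.36, 2.09 and 1.75 in the FL, del-cIDR and inactive del-cIDR lines, and FL's by the sum without the 6 unsteady elements 2.60. Whether replicate numbers pair the libraries is not known. Correlations of their deviations ran from -0.043 to 0.105 over all rows and from -0.108 to 0.166 over the elements. Such correlations cannot show a shift common to all rows. The m6A spike-in was higher in replicate 1 of every genotype, and the element median in replicate 2 of all 4 lines but not of Col-0. The replicate block moved no count by over 1.5 times (2740 elements called in FL against Col-0). Of the named elements, AT3TE58730 ran from -4.04 to 0.86 and AT3TE58020 from -1.39 to 0.62 in FL against Col-0, and AT3TE58775 from -4.59 to 0.19 in FL against inactive FL, when 1 library was left out. The cause was not tested where no other is given. With depth unknown, how much low elements are limited by counting cannot be stated.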
